A study of Mus musculus with 16 samples.

Results

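The genes of 10 secreted acute phase proteins were followed in mouse lung: Lcn2, Lrg1, Serpina3n, Hp, Cp, Orm1, Itih4, Fgb, Fgg and Hpx. They were chosen by symbol, and every probe set whose annotation named exactly 1 of these symbols was taken, which gave 16 of 22626 probe sets for 10 of 12393 genes. Cp had 7 probe sets and each of the other genes had 1, and no member was removed by a filter on low values.

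Whole left lungs were taken from wildtype C57BL/6 mice and from adiponectin-deficient mice, whose background strain is also given as C57BL/6, directly after 72 h in room air or in 0.3 ppm ozone, an oxidant pollutant of urban air. Adiponectin is a hormone of fat cells, and the labels do not say which part of its gene Adipoq was removed. Each of the 4 groups (wildtype air, wildtype ozone, deficient air and deficient ozone) held 4 mice on 1 array each, males M1 and M2 and females F1 and F2, with a mean age of 14 weeks. Wildtype ozone F1 was kept in the ozone group, as its title, source and exposure fields have it, although its free description names room air. Levels below are log2 intensities, and differences are log2 differences ± SE from a limma fit over all arrays. Calls were made at p under 0.05 after Benjamini-Hochberg adjustment over all probe sets. The p-values test each difference against the spread between these mice, which limma moderates with a value pooled over probe sets.

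The arrays had median intensities of 145.9 to 153.7, and precision is limited by having 4 arrays a group. Adipoq was lower in deficient than in wildtype mice in ozone without overlap, but the array labelled deficient air F2 stood at 8.82, inside the wildtype range of 7.19 to 11.52. That array and wildtype air F1 also carried the highest fat cell markers, deficient air M2 carried muscle and squamous markers, and wildtype ozone M2 carried neutrophil markers. Their values are given beside the members they move with.

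Acute phase proteins are plasma proteins whose output changes during infection, injury and inflammation. The liver makes most of them in response to interleukin 6, which acts through the receptor subunit gp130, the kinase JAK and the transcription factor STAT3, together with interleukin 1 and tumour necrosis factor, which act through NF-kB and C/EBP factors. Several are also made outside the liver, in the airway and alveolar epithelium, in macrophages and in granules of neutrophils, where they bind iron carriers, haem, haemoglobin and copper or restrain proteases.

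Promoters of 8 of the 10 genes were matched in RefSeq (build GRCm38.p6), each as the 250 bases before and 50 bases after an annotated start. The 5 shown are those of the 4 genes that rose most in ozone and of Fgb, which had no call, so that their motif letters can be set side by side. Capitals mark a match to 1 of 4 motifs, searched on both strands: the STAT motif TTCNNNGAA, the interleukin 6 response motif CTGGGAA, the C/EBP motif TTGCNNAA and the NF-kB motif GGNNTTTCC. Lcn2 lies at chr2:32387690-32387989, minus strand, Lrg1 at chr17:56121897-56122196, minus strand, Serpina3n at chr12:104406458-104406757, plus strand, Itih4 at chr14:30886226-30886525, plus strand, and Fgb at chr3:83049814-83050113, minus strand. All runs are written 5′ to 3′ on the gene's strand.
Lcn2 promoter: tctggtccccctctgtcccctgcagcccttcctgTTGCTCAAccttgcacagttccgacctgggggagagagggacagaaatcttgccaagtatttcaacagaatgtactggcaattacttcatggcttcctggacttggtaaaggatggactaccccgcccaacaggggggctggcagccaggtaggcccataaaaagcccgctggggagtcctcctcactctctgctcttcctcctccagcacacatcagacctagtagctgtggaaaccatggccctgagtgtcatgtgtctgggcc
Lrg1 promoter: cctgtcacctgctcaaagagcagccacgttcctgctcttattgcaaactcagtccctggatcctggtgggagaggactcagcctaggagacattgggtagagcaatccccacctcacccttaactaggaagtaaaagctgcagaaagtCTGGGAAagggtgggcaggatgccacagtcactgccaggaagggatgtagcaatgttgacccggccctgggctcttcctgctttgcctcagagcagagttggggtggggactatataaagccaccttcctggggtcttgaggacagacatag
Serpina3n promoter: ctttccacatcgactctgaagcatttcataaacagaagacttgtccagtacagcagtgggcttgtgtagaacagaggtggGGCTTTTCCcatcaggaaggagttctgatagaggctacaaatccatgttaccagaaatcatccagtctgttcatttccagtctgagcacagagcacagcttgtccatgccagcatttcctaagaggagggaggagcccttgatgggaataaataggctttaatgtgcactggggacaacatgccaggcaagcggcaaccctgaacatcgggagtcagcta
Itih4 promoter: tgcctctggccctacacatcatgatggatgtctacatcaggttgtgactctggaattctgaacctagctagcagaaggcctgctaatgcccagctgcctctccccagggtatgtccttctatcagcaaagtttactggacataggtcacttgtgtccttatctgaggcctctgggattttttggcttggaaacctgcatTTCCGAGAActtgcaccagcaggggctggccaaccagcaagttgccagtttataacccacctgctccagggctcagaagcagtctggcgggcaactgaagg
Fgb promoter: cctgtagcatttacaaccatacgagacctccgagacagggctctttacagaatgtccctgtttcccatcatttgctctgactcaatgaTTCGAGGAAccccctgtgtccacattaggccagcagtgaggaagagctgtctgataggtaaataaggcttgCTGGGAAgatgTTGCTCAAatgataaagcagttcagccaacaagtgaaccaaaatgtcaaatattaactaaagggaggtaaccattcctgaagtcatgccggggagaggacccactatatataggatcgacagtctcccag

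Each of the 4 promoters of rising genes held a single match, and each match was to a different motif. Giving the first letter's position relative to the annotated start, the Lcn2 promoter had the C/EBP letters at -216, the Lrg1 promoter the interleukin 6 response letters at -102, the Serpina3n promoter the NF-kB letters at -170 and the Itih4 promoter the STAT letters at -51. The Fgb promoter held 3 of the 4 motifs, with STAT letters at -162, interleukin 6 response letters at -91 and C/EBP letters at -80. Of the promoters not printed, Fgg had interleukin 6 response letters at -13, Hpx had C/EBP letters at -200, and the second of the 2 Cp promoters had NF-kB letters at -146 and C/EBP letters at -70. The matches in these promoters did not overlap each other. Among 32544 promoters of the same length, the STAT motif was found in 8.33%, the interleukin 6 response motif in 11%, the C/EBP motif in 10.8% and the NF-kB motif in 5.83%. A match describes letters only, and these short motifs are common.

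Ozone raised 6 of the 10 genes in wildtype mice and 7 in adiponectin-deficient mice, and lowered none in either genotype by the probe set of highest mean. Lcn2, Lrg1, Serpina3n, Itih4, Cp and Hp rose in both genotypes, and Fgg passed only the test in deficient mice. Orm1, Hpx and Fgb passed neither test. In wildtype mice the 6 called genes stand beside 19.5% of all 12393 genes called higher, and in deficient mice the 7 stand beside 15.6%. The median difference of the 10 genes was 0.52 in wildtype and 0.76 in deficient mice, against 0.032 and 0.012 over all genes. For 6 genes in wildtype mice every ozone array lay above every air array, which held for 17.1% of all genes, and for 7 genes in deficient mice, against 15.4%. In bulk lung RNA, fewer or more cells of a type and less or more RNA per cell cannot be told apart.

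**Figure D1:**
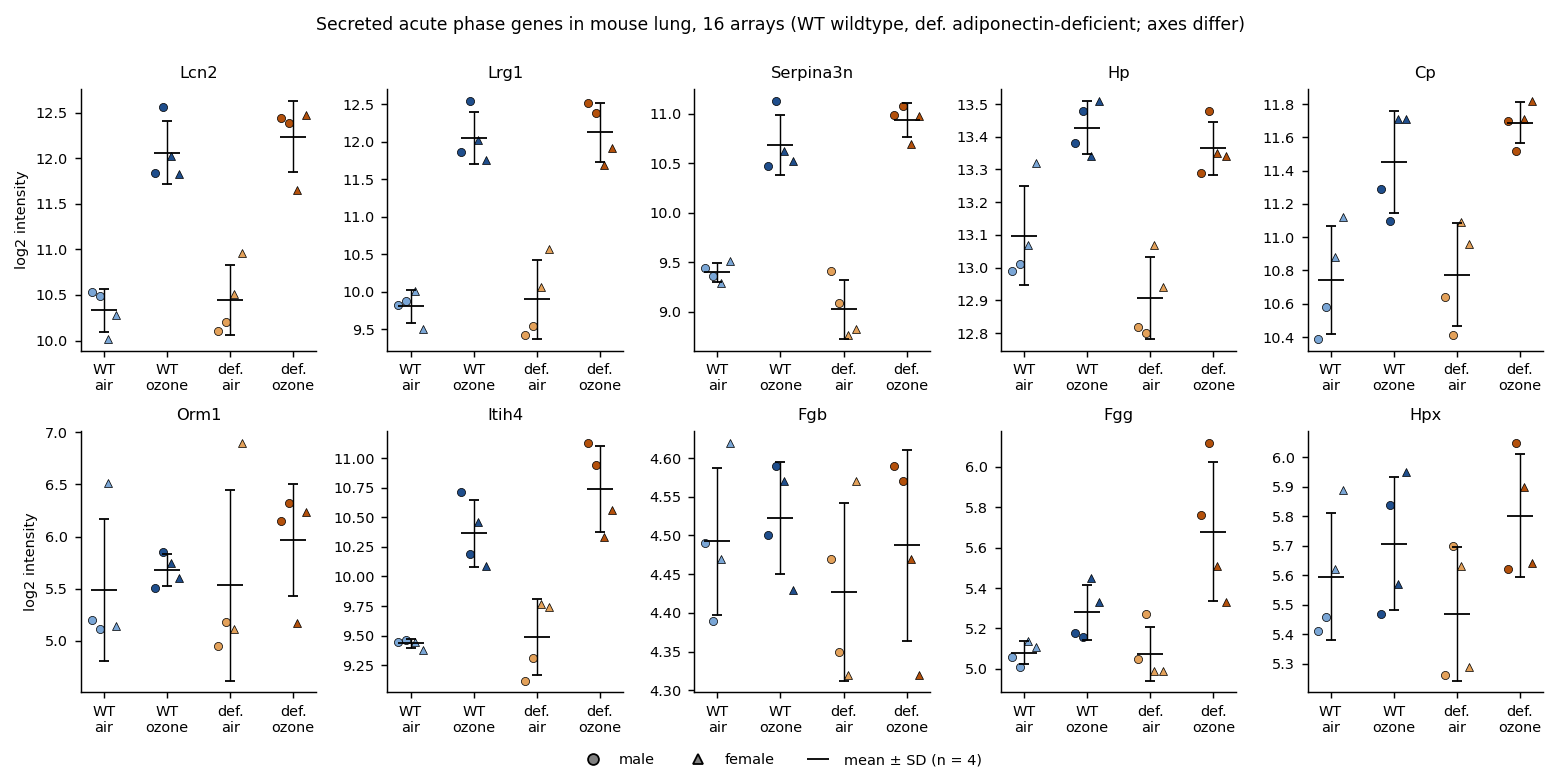
Log2 intensity of each gene on the 16 arrays, by the probe set of highest mean, in the 4 groups; circles are males, triangles females, and bars the mean ± SD (n = 4). Lcn2, Lrg1, Serpina3n and Itih4 separate ozone from air in both genotypes, while Fgb stays between 4.32 and 4.62 on every array.

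Lcn2 encodes lipocalin 2, which captures bacterial iron carriers and is made by stimulated epithelium and stored in neutrophil granules. Its level in wildtype mice was 10.53, 10.49, 10.02 and 10.28 in air and 11.84, 12.56, 12.02 and 11.83 in ozone, listed here and below as M1, M2, F1, then F2. In deficient mice it was 10.10, 10.20, 10.51 and 10.96 in air and 12.44, 12.39, 11.65 and 12.47 in ozone. All ozone arrays of each genotype lay above its air arrays, with wildtype ozone M2 the highest of its group and deficient ozone F1 the lowest of its own. Lcn2 rose 3.32-fold in wildtype mice (1.73 ± 0.22 log2, 95% interval 1.27 to 2.20, limma adjusted p = 4.45e-05) and 3.47-fold in deficient mice (1.80 ± 0.22, 1.33 to 2.26, adjusted p = 3.42e-05).

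Because Lcn2 is also a neutrophil gene, neutrophil markers are given beside it. The summed intensity of the 12 measured neutrophil markers ran from 3248 to 8020 in wildtype air, 2553 to 47637 in wildtype ozone, 2768 to 6866 in deficient air and 4405 to 7729 in deficient ozone, and 1 of the 12 was called higher in wildtype mice, with the other 11 there and the 12 in deficient mice not called and median differences of 0.38 and 0.11. The called marker was Elane, neutrophil elastase (0.27, limma adjusted p = 0.0475), at 5.56 to 5.85 in wildtype air and 5.89 to 6.19 in wildtype ozone. The highest sum was on wildtype ozone M2, where S100a8 reached 13.68 and Ngp 12.17. On the other wildtype ozone arrays S100a8, a calcium-binding protein abundant in neutrophils, stood at 9.60, 9.44 and 9.53, below the wildtype air range of 9.80 to 11.84. Ltf, the granule protein lactoferrin, stood at 8.67, 10.43 and 10.33 on them against 8.04 to 10.06 in wildtype air, and Cd177, a neutrophil surface protein, was 5.86 to 6.09 in deficient ozone against 4.82 to 5.17 in deficient air. Deviations of Lcn2 from its group means followed those of S100a8 with r = 0.71 and of S100a9 with r = 0.70 over 16 arrays, but those of Ltf with only r = 0.19. The part of neutrophils in the Lcn2 values was not tested. Without wildtype ozone M2, the Lcn2 difference in wildtype mice was 1.57 (limma adjusted p = 0.000181).

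Lrg1 encodes leucine-rich alpha-2-glycoprotein 1, a secreted protein that modulates TGF-beta signalling in endothelium and is also found in neutrophil granules. It stood at 9.83, 9.88, 10.01 and 9.50 in wildtype air and at 11.87, 12.55, 12.02 and 11.76 in wildtype ozone. In deficient mice it stood at 9.43, 9.54, 10.06 and 10.57 in air and at 12.52, 12.38, 11.69 and 11.92 in ozone. The exposures did not overlap in either genotype, and within the deficient air group the females lay above the males. Lrg1 had the largest rise of the 10 genes in both genotypes, 4.74-fold in wildtype mice (2.24 ± 0.246 log2, 1.72 to 2.77, limma adjusted p = 1.51e-05) and 4.69-fold in deficient mice (2.23 ± 0.246, 1.70 to 2.75, adjusted p = 1.35e-05). Without wildtype ozone M2 the wildtype difference was 2.07 (adjusted p = 6.56e-05).

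Serpina3n is a mouse counterpart of human alpha-1-antichymotrypsin, an inhibitor of serine proteases such as those released by neutrophils. Its level was 9.44, 9.36, 9.29 and 9.51 in wildtype air and 10.47, 11.13, 10.62 and 10.52 in wildtype ozone. In deficient mice it was 9.41, 9.09, 8.76 and 8.83 in air and 10.99, 11.08, 10.69 and 10.98 in ozone. Every ozone array was above every air array of both genotypes, and the deficient air females were the lowest arrays of all. The rise was 2.44-fold in wildtype mice (1.29 ± 0.13 log2, 1.01 to 1.56, limma adjusted p = 7.2e-06) and 3.77-fold in deficient mice (1.92 ± 0.13, 1.64 to 2.19, adjusted p = 1.32e-07). Wildtype ozone M2, the array with neutrophil markers, was the highest of its group, and without it the wildtype difference was 1.17 (adjusted p = 1.76e-05).

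Itih4 encodes a heavy-chain member of the inter-alpha-trypsin inhibitor family, plasma proteins linked to hyaluronan and matrix stability. In wildtype air its 4 arrays lay close together, at 9.45, 9.46, 9.45 and 9.38, and in wildtype ozone they stood at 10.71, 10.19, 10.46 and 10.09. In deficient mice the levels were 9.12, 9.31, 9.77 and 9.74 in air and 11.13, 10.94, 10.33 and 10.56 in ozone. The exposures were separate in each genotype, with the highest ozone values in males. Itih4 rose 1.90-fold in wildtype mice (0.93 ± 0.18 log2, limma adjusted p = 0.00109) and 2.39-fold in deficient mice (1.26 ± 0.18, adjusted p = 0.000127). Its neighbours on chromosome 14 of the same family, Itih3 and Itih1, had differences of 0.14 and 0.05 in wildtype and 0.15 and -0.01 in deficient mice, without a call.

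Hp encodes haptoglobin, which binds free haemoglobin, and Hpx encodes hemopexin, which binds free haem. Hp was already bright in air, at 12.99, 13.01, 13.07 and 13.32 in wildtype and 12.82, 12.80, 13.07 and 12.94 in deficient mice. In ozone it was 13.38, 13.48, 13.34 and 13.51 in wildtype and 13.29, 13.48, 13.35 and 13.34 in deficient mice. Air and ozone did not overlap within either genotype, although wildtype air F2 lay just under the lowest wildtype ozone array and above deficient ozone M1. The rise was small, 1.25-fold in wildtype mice (0.33 ± 0.0774 log2, 0.16 to 0.49, limma adjusted p = 0.00432) and 1.38-fold in deficient mice (0.46 ± 0.0774, 0.30 to 0.63, adjusted p = 0.00044). The wildtype call for Hp was lost when wildtype ozone M2 and the 3 air arrays with markers of fat, muscle or squamous tissue were left out together (0.26, adjusted p = 0.064), an alternative chosen after seeing the data.

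Hpx was dim, between 5.26 and 6.05 on all arrays, and its exposures overlapped in both genotypes. Its difference in ozone was 0.11 (-0.19 to 0.41, limma adjusted p = 0.574) in wildtype and 0.33 (0.03 to 0.63, adjusted p = 0.0928) in deficient mice. The deficient difference passed without deficient air M2 (0.43, adjusted p = 0.0342), the array with muscle and squamous markers, and with array weights (0.38, adjusted p = 0.0383). Across arrays Hp and Hpx deviated from their group means together, with r = 0.68 and rho = 0.60 over 16 arrays and r = 0.56 without the 2 arrays farthest from the median of Hp, wildtype air F2 and deficient air F1. The deviations share the arrays' normalization, and r is given as a description.

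Cp encodes ceruloplasmin, a copper-carrying ferroxidase that lets iron leave cells and load onto transferrin. Its brightest probe set, 1417494_a_at, stood at 10.39, 10.58, 10.88 and 11.12 in wildtype air and 11.29, 11.10, 11.71 and 11.71 in wildtype ozone. In deficient mice it stood at 10.64, 10.41, 11.09 and 10.96 in air and 11.70, 11.52, 11.71 and 11.82 in ozone. Wildtype air F2, at 11.12, exceeded wildtype ozone M2, at 11.10, so the wildtype exposures overlapped, while within each sex they were separate. The rise was 1.64-fold in wildtype mice (0.71 ± 0.0946 log2, limma adjusted p = 6.67e-05) and 1.88-fold in deficient mice (0.91 ± 0.0946, adjusted p = 7.85e-06).

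The 7 Cp probe sets disagreed in direction. In wildtype mice 3 were called higher, 2 lower and 2 had no call, and in deficient mice 4 were higher, 1 lower and 2 had no call. Probe sets 1417494_a_at, 1417495_x_at and 1455393_at rose in both genotypes, by 0.71, 0.49 and 0.76 in wildtype and by 0.91, 0.83 and 1.19 in deficient mice. Probe set 1417497_at fell by 0.43 in wildtype mice (adjusted p = 0.00691) and by 0.35 in deficient mice (adjusted p = 0.0243). Probe set 1448735_at fell by 0.55 in wildtype mice (adjusted p = 0.00268), and its deficient difference was -0.27 (adjusted p = 0.109). Over all members, 8 of 16 probe sets were higher and 2 lower in wildtype mice, where 18.2% of all probe sets were higher and 18.2% lower, and 10 were higher and 1 lower in deficient mice, beside 14.5% and 14.8%.

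For both falling Cp sets the wildtype exposures did not overlap. Probe set 1448735_at stood at 8.65, 8.70, 8.69 and 8.91 in wildtype air and 8.15, 7.83, 8.38 and 8.41 in wildtype ozone. Probe set 1417497_at stood at 7.40, 7.37, 7.55 and 7.73 in wildtype air and 7.14, 6.82, 7.15 and 7.24 in wildtype ozone. Its call in deficient mice was lost without deficient air M1 (-0.27), deficient air F1 (-0.34), deficient ozone M2 (-0.34), deficient ozone F1 (-0.35) or deficient ozone F2 (-0.29), each at a limma adjusted p between 0.0511 and 0.091. With the mean of all Cp probe sets in place of the brightest, the wildtype difference was 0.17 (adjusted p = 0.21) and the deficient difference 0.45 (adjusted p = 0.00376). The files do not say which transcripts or exons each set reads, so which Cp RNAs rose or fell was not tested.

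**Figure D2:**
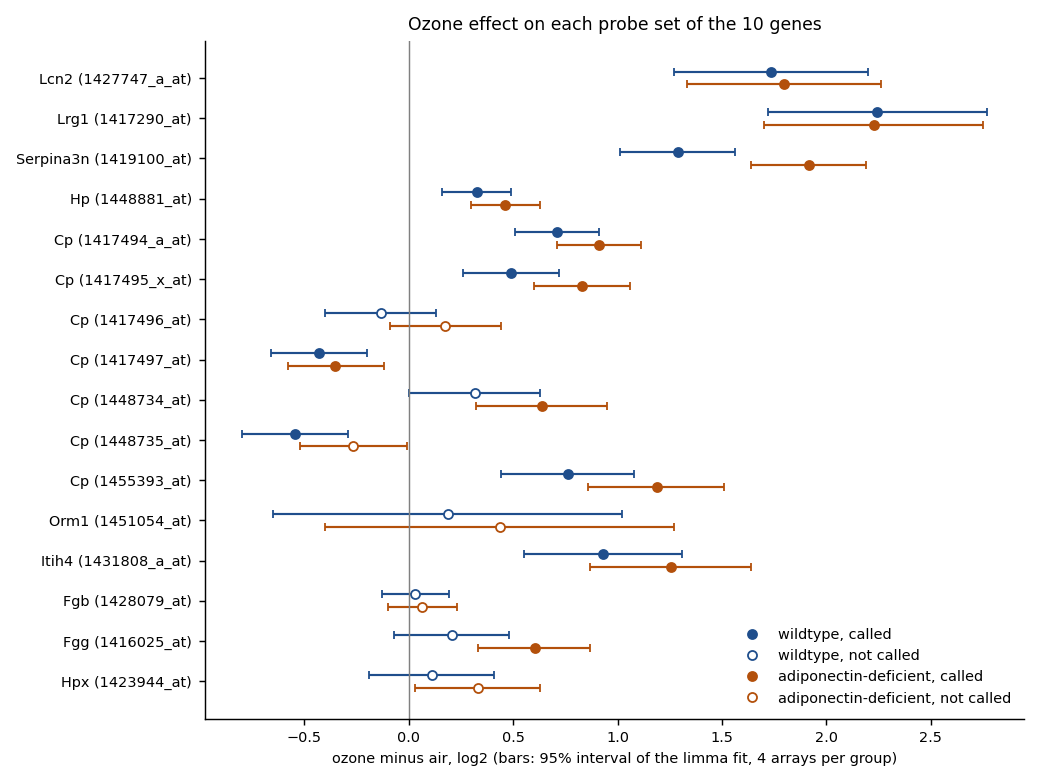
Ozone minus air (log2) for each of the 16 probe sets in wildtype (blue) and deficient (orange) mice; bars are limma's 95% intervals (4 arrays in each group) and filled points were called. Lrg1 lies farthest right at 2.24 and 2.23, and Cp probe sets lie on both sides of 0.

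Fgb and Fgg encode the beta and gamma chains of fibrinogen, the soluble precursor of the fibrin clot, and are textbook liver genes. Both were dim. Fgb lay between 4.32 and 4.62 on all arrays, with overlapping groups and differences of 0.03 (-0.13 to 0.19) in wildtype and 0.06 (-0.10 to 0.23) in deficient mice. Fgg stood at 5.06, 5.01, 5.14 and 5.11 in wildtype air and 5.18, 5.16, 5.45 and 5.33 in wildtype ozone. In deficient mice it stood at 5.05, 5.27, 4.99 and 4.99 in air and 5.76, 6.12, 5.51 and 5.33 in ozone. All ozone arrays lay above the air arrays of the same genotype, by narrow margins, with the deficient ozone males highest. The wildtype difference of 0.21 ± 0.127 missed the threshold (limma adjusted p = 0.223), and the deficient difference of 0.60 ± 0.127 passed it (adjusted p = 0.00238). With only the wildtype arrays in the fit, the wildtype difference of 0.21 passed (adjusted p = 0.0353). Fga, the alpha chain gene beside them on chromosome 3, had differences of 0.15 and 0.36 without a call. The mean levels of Fgb, 4.48, and Fgg, 5.28, were among the lowest of the array, and no detection calls were used, so how far they stood above background is unknown.

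Orm1 encodes orosomucoid 1, a lipid- and drug-binding plasma glycoprotein made in liver and in fat. It stood at 5.20, 5.11, 6.51 and 5.14 in wildtype air and 5.51, 5.85, 5.75 and 5.60 in wildtype ozone. In deficient mice it stood at 4.95, 5.18, 5.11 and 6.90 in air and 6.15, 6.32, 5.17 and 6.24 in ozone. A single air array in each genotype lay above every ozone array of that genotype, and deficient ozone F1 lay at the air level, so the exposures overlapped. The differences were 0.19 ± 0.391 (-0.65 to 1.02, limma adjusted p = 0.74) in wildtype and 0.44 ± 0.391 (-0.40 to 1.27, adjusted p = 0.441) in deficient mice.

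The high Orm1 air arrays were the arrays with the highest fat cell markers. The summed intensity of 10 fat cell markers ran from 2619 to 21939 in wildtype air, highest on F1, and from 4050 to 20595 in deficient air, highest on F2, against 3430 to 5360 in wildtype ozone and 2501 to 2938 in deficient ozone. Cidec, a lipid droplet protein, was 8.67 and 8.54 on them and 5.25 to 6.40 on the other arrays, and Ucp1, the uncoupling protein of brown fat, was 7.25 and 7.27 against 4.62 to 5.18. Without these arrays and deficient air M2, an alternative chosen after seeing the data, the Orm1 difference was 0.55 (limma adjusted p = 0.0607) in wildtype and 0.94 (adjusted p = 0.0127) in deficient mice. The part of fat tissue in the Orm1 values was not tested further. Orm3 and Orm2, which follow Orm1 on chromosome 4, had differences between -0.03 and 0.04 without a call.

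**Figure D3:**
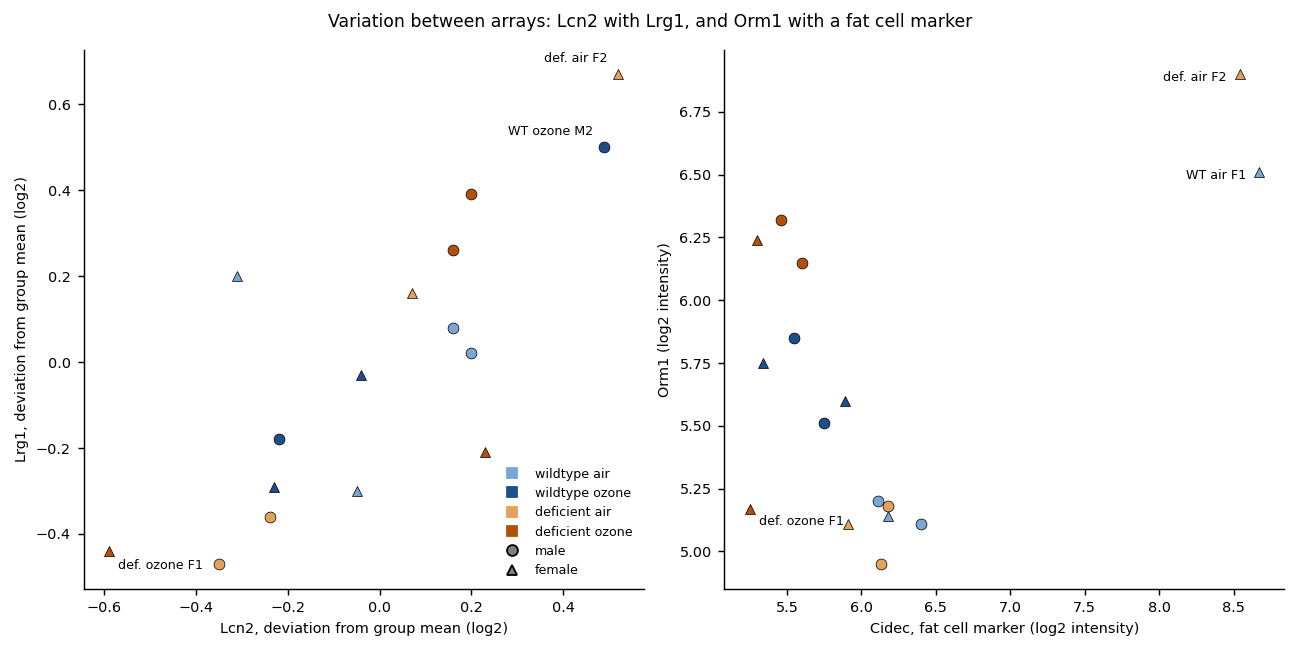
Left, deviation of Lcn2 (x) and Lrg1 (y) from their group means in log2 units; right, log2 intensity of Cidec (x) and Orm1 (y), with 1 point per array (circles males, triangles females). Lcn2 and Lrg1 deviate together with r = 0.79, and wildtype air F1 and deficient air F2 stand apart with Cidec at 8.67 and 8.54 and Orm1 at 6.51 and 6.90.

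Of the 10 genes, none passed the threshold for a difference between genotypes. In room air limma called 0 of them, with 2 at an unadjusted p under 0.05, beside 0.00807% of all genes called and 732 of 12393 at an unadjusted p under 0.05. In ozone limma called 0 with 2 at an unadjusted p under 0.05, beside 0.0161% of all genes called and 1392 at an unadjusted p under 0.05. The 2 in ozone were Fgg, at 0.40 (0.12 to 0.67, limma adjusted p = 0.297), and Cp, at 0.24 (0.04 to 0.44, adjusted p = 0.381). The other Cp probe sets differed between genotypes in ozone by 0.17 to 0.43, also without a call. Among them, set 1448735_at (0.39, 0.13 to 0.65, adjusted p = 0.293) was higher in deficient mice without overlap. The median genotype difference of the 10 genes was 0.02 in air and 0.21 in ozone, against -0.003 and -0.008 over all genes. The interaction, which asks whether the ozone effect differed between genotypes, also gave 0 called members, 2 at an unadjusted p under 0.05, and 0.0% of all genes, of which 603 had an unadjusted p under 0.05. The interaction of Serpina3n was 0.63 (0.24 to 1.02, limma adjusted p = 0.974), with the deficient mice at -0.38 (-0.65 to -0.10, adjusted p = 0.642) against wildtype in air and at 0.25 (-0.02 to 0.53, adjusted p = 0.504) in ozone. The interaction of Fgg was 0.40 (0.01 to 0.78, adjusted p = 0.974). For Lcn2 and Lrg1 the interactions were 0.06 (-0.60 to 0.72) and -0.01 (-0.76 to 0.73), intervals that leave room for differences of either sign. These 3 comparisons share arrays, so their values are not independent of each other. Saa3, an inducible serum amyloid A gene of the wider acute phase list, was by contrast called between genotypes in ozone (2.37, adjusted p = 0.0307), while its interaction was 2.43 (adjusted p = 0.834).

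Sex was tested over all groups. Cp was the only member called, higher in females by 0.42 ± 0.0669 (limma adjusted p = 0.00197), beside 4.02% of all genes higher in females. By exposure, probe set 1417494_a_at was 10.50 ± 0.12 in air males, 11.01 ± 0.11 in air females, 11.40 ± 0.26 in ozone males and 11.74 ± 0.06 in ozone females (SD, n = 4 each). In air every female lay above every male, and in ozone every female lay above every male as well, the highest ozone male being at 11.70 and the lowest female at 11.71. The Cp sets 1417495_x_at and 1455393_at, which rose in both genotypes, were also higher in females, by 0.39 (adjusted p = 0.00723) and 0.67 (adjusted p = 0.00212). Set 1448734_at, which rose in deficient mice, had a sex difference of 0.24 without a call (adjusted p = 0.176), and the falling sets 1417497_at and 1448735_at had sex differences of 0.06 and 0.08 without a call.

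**Figure D4:**
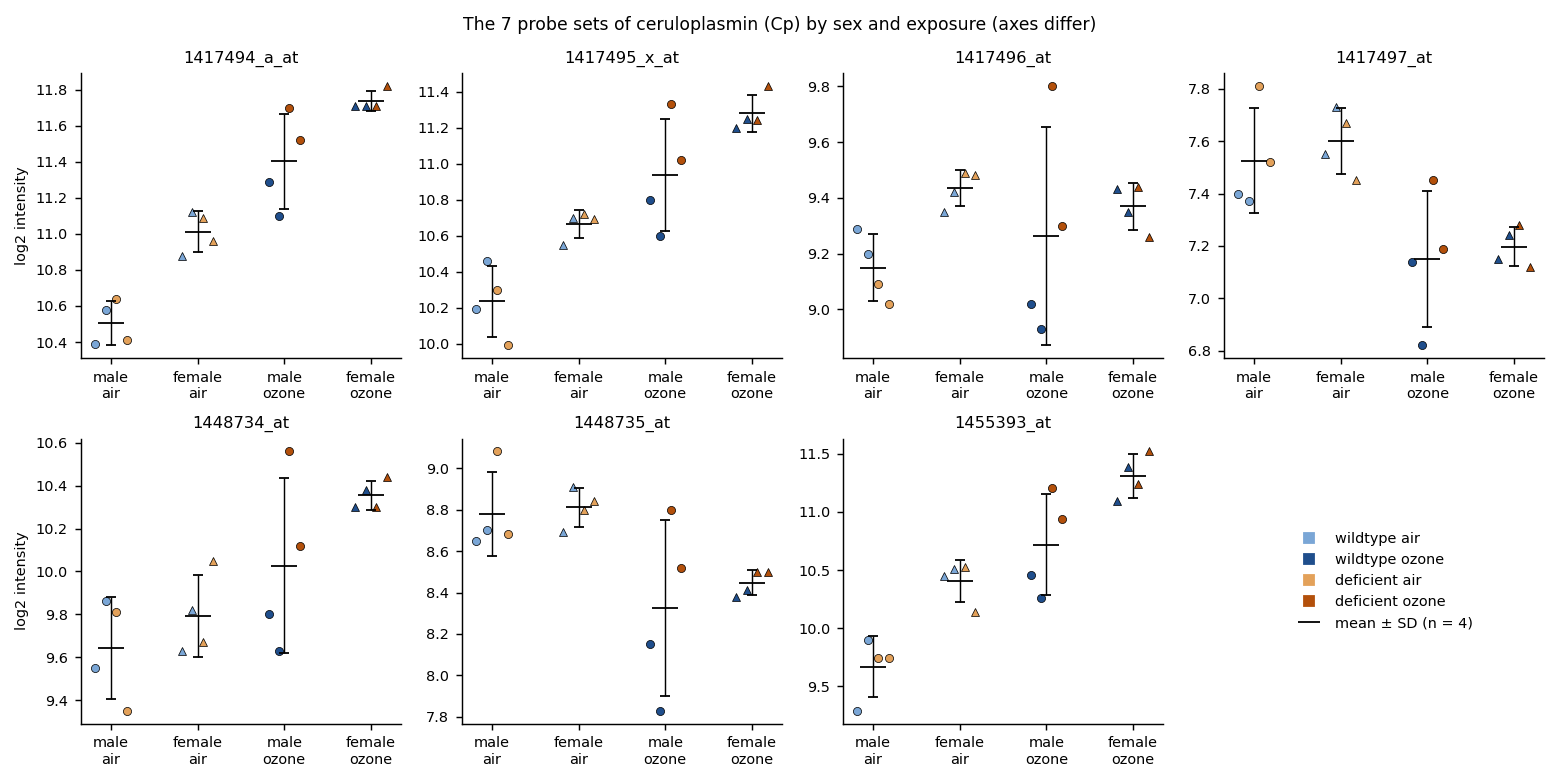
Log2 intensity of the 7 Cp probe sets in air and ozone males and females, colours giving the genotype and bars the mean ± SD (n = 4). Sets 1417494_a_at, 1417495_x_at and 1455393_at rise with ozone and are higher in females, and sets 1417497_at and 1448735_at are lower in ozone.

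The ozone effect was then compared between the sexes. Limma called 0 of the 10 genes, with 2 at an unadjusted p under 0.05, beside 0.00807% of all genes called and 1068 of 12393 at an unadjusted p under 0.05. The 2 members were Lrg1 and Itih4. Lrg1 rose from 9.67 ± 0.22 to 12.33 ± 0.31 in males and from 10.03 ± 0.43 to 11.84 ± 0.15 in females (SD, n = 4), a difference between the sexes of -0.85 (-1.34 to -0.36, limma adjusted p = 0.342). Itih4 rose from 9.33 ± 0.16 to 10.74 ± 0.41 in males and from 9.58 ± 0.20 to 10.36 ± 0.20 in females, a difference of -0.63 (-0.98 to -0.28, adjusted p = 0.33). Both intervals lie below 0, and neither passed the adjustment over all probe sets. Without the 3 air arrays with markers of other tissues and wildtype ozone M2, the difference for Lrg1 was -0.46 (adjusted p = 0.355) and that for Itih4 -0.80 (adjusted p = 0.237).

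Within groups, some members varied together. Lcn2 and Lrg1 had r = 0.98 over the 16 arrays, which also differ in exposure. After the group means were removed, their deviations kept r = 0.79 and rho = 0.73, and r = 0.68 without deficient ozone F1 and deficient air F2. Lrg1 and Itih4 deviated together with r = 0.64, and with r = 0.80 without deficient air F2 and wildtype ozone M2. Sex was left in the deviations of all pairs. Both of these genes lay lower in males than in females in deficient air, and higher in males in deficient ozone. Their r therefore cannot be told apart from the differences by sex given above. Lrg1 and Orm1 had r = 0.72, and 0.59 without deficient air F2 and wildtype ozone M2. The value of 0.59 still includes wildtype air F1, which carried fat cell markers and where Orm1 deviated by 1.02. Lcn2 and Cp deviations had r = -0.10, and Lrg1 and Serpina3n had r = 0.03, so with sex left in the rising genes did not all vary as a block. Cp was called higher in females and Lcn2 was not, so their r does not show how they vary apart from sex. These are descriptions over 16 arrays that share 1 normalization.

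Over the 16 arrays the genes most like Lcn2 by Pearson r were Fignl1 (0.969), Trappc1 (0.968) and Txn1 (0.963). Those most like Lrg1 were Pclaf (0.966), Trappc1 (0.966) and Fignl1 (0.962), so Lcn2 and Lrg1 shared a pair of the 3. Serpina3n was most like Pole4 (0.979), Timp1 (0.969) and Aurka (0.964), Itih4 most like Erg28 (0.952), and Cp most like Ckb (0.967). Hp was most like the epithelial keratins Krt8 (0.932) and Krt19 (0.925). Orm1 was most like Pcx (0.861), and its deviations were most like those of Ccdc80 (0.904), Mrap (0.897) and Ucp1 (0.892), the last also highest on the air arrays where Orm1 was high.

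The genes that induce acute phase proteins moved in both directions. Of 20 measured cytokines and receptors of the inducing pathways, 6 rose and 3 fell in wildtype mice and 8 rose and 3 fell in deficient mice, with median differences of 0.13 and 0.17. Over all genes, 19.5% were called higher and 17.0% lower in wildtype mice, and 15.6% higher and 14.5% lower in deficient mice. The same shares stand beside the counts of each list below. Il1r1, the signalling receptor of interleukin 1, rose by 0.45 ± 0.0753 (limma adjusted p = 0.000395) and 0.53 ± 0.0753. Lif, a cytokine that signals through gp130, rose by 0.28 and 0.66. The ligand-binding receptors for interleukin 6 and Lif fell in both genotypes, Il6ra by 0.89 and 0.85 and Lifr by 0.80 and 0.72. Il6 itself had a difference of 0.43 (adjusted p = 0.0902) in wildtype mice and rose by 0.90 (adjusted p = 0.0023) in deficient mice. It was dim, at 4.29 to 4.43 in deficient air and at 5.07, 4.96, 4.94 and 6.21 in deficient ozone. Deficient ozone F2, at 6.21, was the only array above 5.07. How far Il6 stood above background is unknown, as no detection calls were used.

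Downstream, 8 of 19 measured signal transducers rose and 2 fell in wildtype mice, and 9 rose and 1 fell in deficient mice, with medians of 0.07 and 0.14. Junb, an AP-1 subunit, rose by 0.90 and 1.23, and Cebpb, a C/EBP factor of the acute phase response, rose by 1.10 ± 0.167 (limma adjusted p = 0.000175) and 1.27 ± 0.167 (adjusted p = 6.3e-05). Stat3 rose by 0.58 and 0.66, and the kinase Pim1, a known STAT3 target, rose by 0.38 and 0.87. The glucocorticoid receptor gene Nr3c1 fell by 0.28 and 0.25. RNA levels do not report whether these factors were active.

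**Figure D5:**
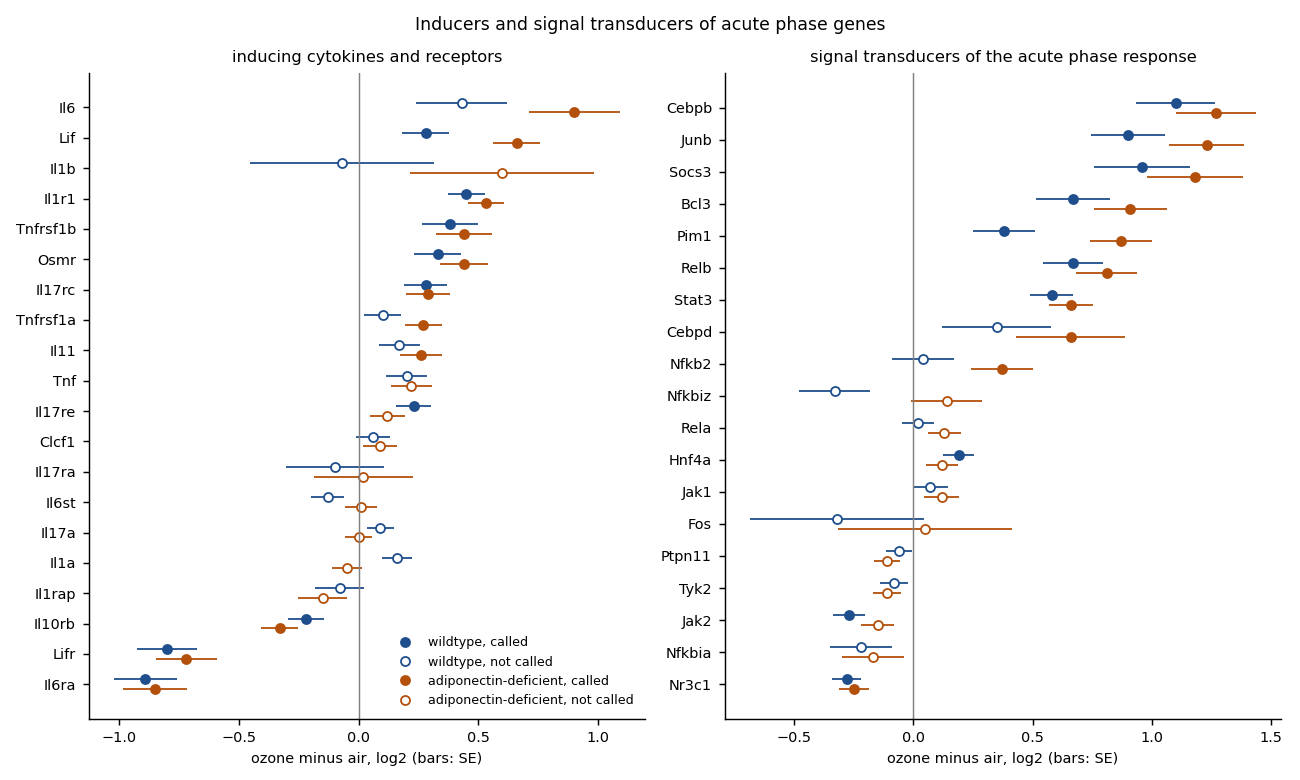
Ozone minus air (log2, bars SE) for 20 inducing cytokines and receptors (left) and 19 signal transducers (right) in wildtype (blue) and deficient (orange) mice, filled where called. Il6ra and Lifr lie lowest on the left, at -0.89 and -0.80 in wildtype mice, and Cebpb lies highest on the right, at 1.10 and 1.27.

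Among 35 other measured acute phase proteins, 10 rose, 1 fell and 24 had no call in wildtype mice, and 10 rose and 25 had no call in deficient mice, with medians of 0.14 and 0.15. Saa3 rose by 1.56 ± 0.337 and by 3.99 ± 0.337. The metal-binding metallothionein Mt1 rose by 1.10 and 0.96, the chitinase-like protein gene Chil1 by 0.60 and 0.70, and Saa1 by 0.26 and 0.43. Of 10 measured negative acute phase proteins, which the liver reduces in inflammation, 3 were called higher and 7 had no call in wildtype mice, and in deficient mice the 10 had no call, with a median of 0.02.

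The receptors and binding partners of the 10 proteins were mixed. Of 30 measured, 7 rose and 4 fell in wildtype mice and 9 rose and 3 fell in deficient mice, with medians of 0.03 and 0.12. Over all genes, 19.5% rose and 17.0% fell in wildtype mice, and 15.6% rose and 14.5% fell in deficient mice. Lrp2, the endocytic receptor megalin that takes up lipocalin 2, rose by 1.42 ± 0.194 (limma adjusted p = 7.81e-05) and 1.19 ± 0.194. Cd163, the macrophage receptor for haemoglobin bound to haptoglobin, fell by 0.98 and 0.85. Hmox1, the haem-degrading oxygenase, rose by 0.41 and 0.70. Tgfbr1, a receptor of the TGF-beta pathway on which Lrg1 acts, fell by 0.47 in wildtype mice and had a difference of -0.12 in deficient mice (adjusted p = 0.273), and Icam1, a ligand for fibrinogen-binding integrins, rose by 0.29 and 0.43.

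The series holds no liver sample to set a scale, so how much liver RNA the arrays carried was not tested. The summed intensity of 15 hepatocyte markers lay between 799 and 1129 over all groups, and 2 rose and 1 fell in wildtype mice and 1 fell in deficient mice. Albumin (Alb) lay between 5.85 and 7.55, with the highest values on wildtype air F2 at 7.55 and deficient air M2 at 7.40. Among lung cells, 9 alveolar type 2 markers summed to 78844 to 89216 in wildtype air and 89677 to 93461 in wildtype ozone, and to 73901 to 81613 in deficient air and 79916 to 93032 in deficient ozone, with 2 called higher in each genotype. The 12 airway secretory markers summed to 74073 to 90723 in wildtype air and 75710 to 87649 in wildtype ozone, with 2 higher and 1 lower. In deficient mice they summed to 80185 to 89429 in air and 75341 to 82428 in ozone, with 1 higher and 2 lower. Which of these cells held the members' RNA was not tested.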

How the data were processed

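Total RNA of the left lung of each mouse was hybridised to an Affymetrix array. The authors deposited linear intensities, 1 for each probe set, from RMA per the submitters' processing notes. For the software version and the genome build, nothing is given in the sources used here. RMA normalizes between arrays, so a shift of all genes at once would be hidden. No detection calls were used.

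The log2 of the deposited intensities was fitted with limma 3.58.1 in R 4.3.3 (lmFit, eBayes) over all 22626 non-control probe sets, with the 4 groups and sex as terms, or 8 groups for ozone by sex. A gene is counted by its probe set of highest mean. Gene names come from the platform annotation: 20380 probe sets had 1 symbol, 691 several and 1555 none. The members and lists were chosen with earlier results of these data known. Up to 4 called genes of a list are named, those of smallest adjusted p, and up to 3 genes most like a member. Il6, Nr3c1, Cd163 and the neighbours and markers given as levels were chosen outside that rule, after their values were seen. Figures used matplotlib 3.10.9, and promoters were searched with Python 3.11.15 and pandas 2.3.3. The fit was tested on simulated data. Alternatives covered normalization, probe set choice, dim probe sets, variance model, weights, covariates, thresholds and left-out arrays.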

Additional observations from a re-analysis of the deposited data

Results flagged for a closer look

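Each of the 16 probe sets was examined in each of the 4 groups. In 6 of these cases a single array stood apart from the other 3 of its group, with a gap to its nearest neighbour above Dixon's 95% critical value for the share of the group's range. Such gaps also arise by chance, about once in every 20 groups tested. Lcn2 was 11.65 on deficient ozone F1, below the other arrays of that group at 12.39 to 12.47. Orm1 was set apart in 3 groups, at 6.51 on wildtype air F1 (others 5.11 to 5.20), at 6.90 on deficient air F2 (others 4.95 to 5.18) and at 5.17 on deficient ozone F1 (others 6.15 to 6.32). Cp probe set 1448735_at was 8.80 on deficient ozone M1, above the others at 8.50 to 8.52. Itih4 was 9.38 on wildtype air F2, below the others at 9.45 to 9.46, a group with a narrow range.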

How the results depend on the processing

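Over 30 settings, 203 of 204 counts of called members stayed within 1.5 times their value, and of 2942 differences of single probe sets 8 lost and 7 gained a call. The sign differed in 94, each of them a difference with no call, and no called difference changed sign. The count that moved was that for sex, which went from 1 gene to 0 when a fold of at least 1.5 was also required. With the replicate block, 6 members were called in wildtype and 7 in deficient mice, as without it, and it changed no other call. The labels do not say whether mice of the same number were paired. After group and sex were removed, 24 same-numbered pairs had correlations from -0.33 to 0.11 (median -0.10, 1 over 0.1). By that measure 0 of 16 arrays correlated best with their own number. Removing these terms itself pushes correlations between same-sex arrays of different groups below 0. These values therefore cannot decide whether the numbers pair the mice. Beside the changes already given, the wildtype call of Cp probe set 1455393_at was lost without a sex term (0.76), and without deficient ozone M1 Cp probe set 1448735_at was called lower in deficient mice (-0.36, limma adjusted p = 0.0358) and 1417496_at higher in females (0.28, adjusted p = 0.0158). The cause was not tested. Another scaling moved the median of all probe sets by little (0.016 against 0.054 in wildtype mice). The filter on dim probe sets (mean log2 under 5.41) removed Fgb and Fgg.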

Other observations

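Of 10 measured fibroblast markers, 4 rose and 2 fell in wildtype mice and 5 rose and 2 fell in deficient mice. The collagen genes Col1a1, Col3a1 and Col1a2 rose by 1.19, 0.81 and 0.56 in wildtype and by 1.60, 1.18 and 0.73 in deficient mice. Siglecf, a receptor of alveolar macrophages, fell by 1.03 and 0.78, while limma called 1 of 10 macrophage markers higher and 1 lower in wildtype mice. In deficient mice 0 of the 10 were called higher and 1 lower. The median differences of these markers were -0.03 in wildtype and 0.29 in deficient mice. Pigr, the epithelial transporter of immunoglobulin A, rose by 1.17 and 0.95. Of 10 measured endothelial markers, 0 rose and 3 fell in wildtype mice, and 3 rose and 2 fell in deficient mice. Among them Tek, an angiopoietin receptor of endothelium, fell by 0.48 and 0.39.

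Of the genes beside the members on the chromosome, Lrat, which esterifies retinol and lies next to Fgg, fell by 1.85 (limma adjusted p = 0.00129) in wildtype and by 1.61 (adjusted p = 0.00394) in deficient mice. Beside Lcn2, the adjacent gene 1110008P14Rik rose by 0.53 (limma adjusted p = 3.31e-05) and 0.50 (adjusted p = 4.9e-05) and Slc25a25 by 0.36 and 0.43, while Ciz1 was at -0.18 in both genotypes without a call.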
